A study of Homo sapiens with 8 samples.

Results

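RUNX3, RASSF1, DAB2IP, TIMP3, VASH1, CNR1, SLIT2 and KLF2 are 8 human genes that have been described in other cancers as tumour suppressors repressed by EZH2. The rule for the list used no value measured here, although the list was chosen with earlier results of these data known, and its genes are 8 of 20090 protein-coding genes of the GENCODE annotation on chromosomes 1 to 22 and X. Each gene was measured over its whole gene record plus 2000 bp upstream of the record's start, in GRCh37 coordinates.

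The cells were PC9, an established human lung adenocarcinoma cell line, and H3K27me3 was measured by ChIP-seq to ask how inhibition of EZH2 changes its distribution along the genome. H3K4me3 was measured beside it as a control mark for the spike-in normalization. One arm received DMSO, the vehicle, and the other 1 µM GSK126, a small molecule inhibitor of EZH2, in each case for 5 days, and every reaction also carried chromatin and a histone variant antibody of Drosophila melanogaster as a spike-in reference. There were 2 libraries for each mark and treatment, 8 in all, and the deposited data were 14 lists of islands, which are stretches of genome enriched for sequencing tags as called by SICER in each library alone, against a random background and without an input library. All libraries came from a single cell line, so the replicates show the spread between ChIP experiments in PC9 and not between tumours.

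In the standard lists, the authors had thinned the deeper of each pair of libraries at random, so that DMSO and GSK126 held equal numbers of human tags. In the spike-in lists, tags had been removed according to the Drosophila tag counts, so that a library with relatively more Drosophila tags kept fewer human tags. The tag density behind each list, read from the scores of its smallest islands, showed what this did. For H3K27me3, the spike-in list with GSK126 held 23.1% and 19.6% of the tags per window of its DMSO partner in replicates 1 and 2, whereas the H3K4me3 lists with GSK126 held 83.6% and 86.9%. In the standard lists the densities of both treatments were equal within a replicate. H3K4me3 was shallow in replicate 2, with 0.302 tags per 200-bp window with DMSO against 1.77 in replicate 1, and the islands of that replicate were shorter. Since a list from fewer tags also yields fewer and shorter islands, covered lengths in the spike-in lists combine the loss of signal with the loss of depth, which cannot be told apart.

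H3K27me3 is deposited by EZH2, the catalytic subunit of Polycomb repressive complex 2, and is found over silenced developmental and lineage genes, often as broad domains. H3K4me3 marks the start sites of active genes. Start sites that carry both marks are called bivalent, and are usually held at low expression. The 8 genes act in growth control, signalling and tissue structure. RUNX3 and KLF2 are transcription factors, DAB2IP and RASSF1 are intracellular regulators of RAS and Hippo signalling, CNR1 is a cannabinoid receptor at the cell surface, and SLIT2, VASH1 and TIMP3 are secreted or extracellular proteins. As a check of the cell line, H3K4me3 lay within 1000 bp of the start with DMSO for 5 of 6 epithelial markers (CDH1, KRT7, KRT8, KRT18 and KRT19, not EPCAM), for EGFR and NKX2-1 among 4 lung adenocarcinoma markers, and for 0 of 4 B cell markers. The start of NKX2-1 also carried H3K27me3 with DMSO, as did those of 3 B cell markers and of 0 epithelial markers.

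The DNA just before the start sites shows what kind of promoter each chromatin state sat on. The 250 bases upstream of 7 starts are given below from the RefSeq promoter table (GRCh38.p14), which held all 8 genes. The positions are those of an exact match in GRCh37, and each sequence is written 5′ to 3′ along its gene with CG dinucleotides in capitals. VASH1 and SLIT2 are shown because their starts carried both marks, and RUNX3 because its internal start fell between islands in most lists. DAB2IP is shown because its internal start kept H3K27me3 in every list, TIMP3 and KLF2 because they carried H3K4me3 alone, and CNR1 because its first start carried neither mark. The RUNX3 window, just upstream of that start, was itself overlapped by an H3K27me3 island in 3 of 4 DMSO lists and in 0 of 4 GSK126 lists.
VASH1 (chr14:77227561-77227810, plus strand): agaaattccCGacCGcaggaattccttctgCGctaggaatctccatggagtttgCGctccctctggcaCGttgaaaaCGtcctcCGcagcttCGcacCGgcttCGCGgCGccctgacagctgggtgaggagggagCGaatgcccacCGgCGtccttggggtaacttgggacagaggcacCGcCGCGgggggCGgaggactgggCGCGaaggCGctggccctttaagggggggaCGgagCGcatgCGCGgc
SLIT2 (chr4:20253278-20253527, plus strand): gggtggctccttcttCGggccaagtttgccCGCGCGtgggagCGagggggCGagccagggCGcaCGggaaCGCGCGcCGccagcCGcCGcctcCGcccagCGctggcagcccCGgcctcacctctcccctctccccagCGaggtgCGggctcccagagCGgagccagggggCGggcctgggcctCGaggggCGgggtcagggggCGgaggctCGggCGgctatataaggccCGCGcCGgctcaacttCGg
RUNX3 (chr1:25256768-25257017, minus strand): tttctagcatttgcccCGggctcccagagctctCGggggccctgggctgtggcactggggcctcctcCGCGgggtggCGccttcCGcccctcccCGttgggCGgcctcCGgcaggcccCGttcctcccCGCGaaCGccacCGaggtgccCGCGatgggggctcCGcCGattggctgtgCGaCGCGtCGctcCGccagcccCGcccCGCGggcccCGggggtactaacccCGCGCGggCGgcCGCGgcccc
DAB2IP (chr9:124413663-124413912, plus strand): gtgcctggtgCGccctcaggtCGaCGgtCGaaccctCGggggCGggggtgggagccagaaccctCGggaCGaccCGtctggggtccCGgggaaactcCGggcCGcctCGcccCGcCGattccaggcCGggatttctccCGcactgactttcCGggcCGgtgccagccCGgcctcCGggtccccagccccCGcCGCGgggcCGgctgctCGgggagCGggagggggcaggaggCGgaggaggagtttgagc
TIMP3 (chr22:33197441-33197690, plus strand): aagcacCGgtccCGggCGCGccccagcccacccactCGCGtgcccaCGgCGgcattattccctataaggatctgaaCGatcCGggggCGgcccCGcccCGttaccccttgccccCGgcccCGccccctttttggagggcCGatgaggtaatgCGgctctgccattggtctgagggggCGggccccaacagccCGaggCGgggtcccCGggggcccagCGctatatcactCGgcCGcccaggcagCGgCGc
KLF2 (chr19:16435387-16435636, plus strand): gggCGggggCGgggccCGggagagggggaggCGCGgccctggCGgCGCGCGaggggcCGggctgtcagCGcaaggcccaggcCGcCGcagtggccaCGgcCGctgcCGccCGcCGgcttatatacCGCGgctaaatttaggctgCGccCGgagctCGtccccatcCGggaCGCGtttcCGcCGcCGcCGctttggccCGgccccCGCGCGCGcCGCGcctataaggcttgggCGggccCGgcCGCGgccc
CNR1 (chr6:88876067-88876316, minus strand): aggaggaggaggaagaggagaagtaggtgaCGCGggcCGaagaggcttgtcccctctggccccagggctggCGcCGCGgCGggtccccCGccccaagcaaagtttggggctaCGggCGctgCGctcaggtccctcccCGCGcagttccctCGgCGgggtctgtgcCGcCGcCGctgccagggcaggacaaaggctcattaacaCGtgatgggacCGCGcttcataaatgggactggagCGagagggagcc

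These 7 windows, of 16 that the table held for the 8 genes, were rich in CG whatever mark they carried. The start of KLF2 held 41 CG dinucleotides, a number reached by 1.73% of 35116 promoter windows of the same length, and the internal start of RUNX3 held 33, reached by 8.15%. SLIT2 held 30, DAB2IP 28, VASH1 and TIMP3 26 each, and CNR1 22, against a median of 11 over all windows. These numbers were reached by between 12.4% (SLIT2) and 28.0% (CNR1) of all windows. The GC box GGGCGG, searched on both strands, was found in each of the 7 windows, from 1 copy in VASH1, CNR1 and DAB2IP to 5 copies in SLIT2 and TIMP3, and 42.6% of all windows held at least 1. Some of the other windows were poorer in CG, with H3K27me3 or without it. Under H3K27me3 with DMSO, the distal start of RUNX3 held 13 CG and 1 GC box, the first start of DAB2IP held 10 CG, and the internal start of CNR1 held 2, and neither of these last windows held a GC box. Without H3K27me3 in any list, a DAB2IP start 176 kb downstream held 4 CG and a CNR1 start 3.32 kb downstream held 0.

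With DMSO, 5 of the 8 genes (RUNX3, DAB2IP, VASH1, CNR1 and SLIT2) held H3K27me3 in both spike-in lists, as did 27.7% of all genes. RASSF1, TIMP3 and KLF2 had no H3K27me3 island in any of the 8 H3K27me3 lists, as was the case for 67.0% of all genes. H3K4me3 was present in both DMSO lists at 6 of the 8 (RASSF1, DAB2IP, TIMP3, VASH1, SLIT2 and KLF2), beside 68.0% of all genes. Within 1000 bp of the start of the gene record, H3K27me3 lay at 4 of the 8 (RUNX3, DAB2IP, VASH1 and SLIT2; 17.8% of all genes) and H3K4me3 at 4 (TIMP3, VASH1, SLIT2 and KLF2; 59.4% of all genes). Both marks lay there at VASH1 and SLIT2 alone, 2 of the 8, beside 4.87% of all genes. The heat map of covered shares shows the state of each gene in all 14 lists.

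**Figure D1:**
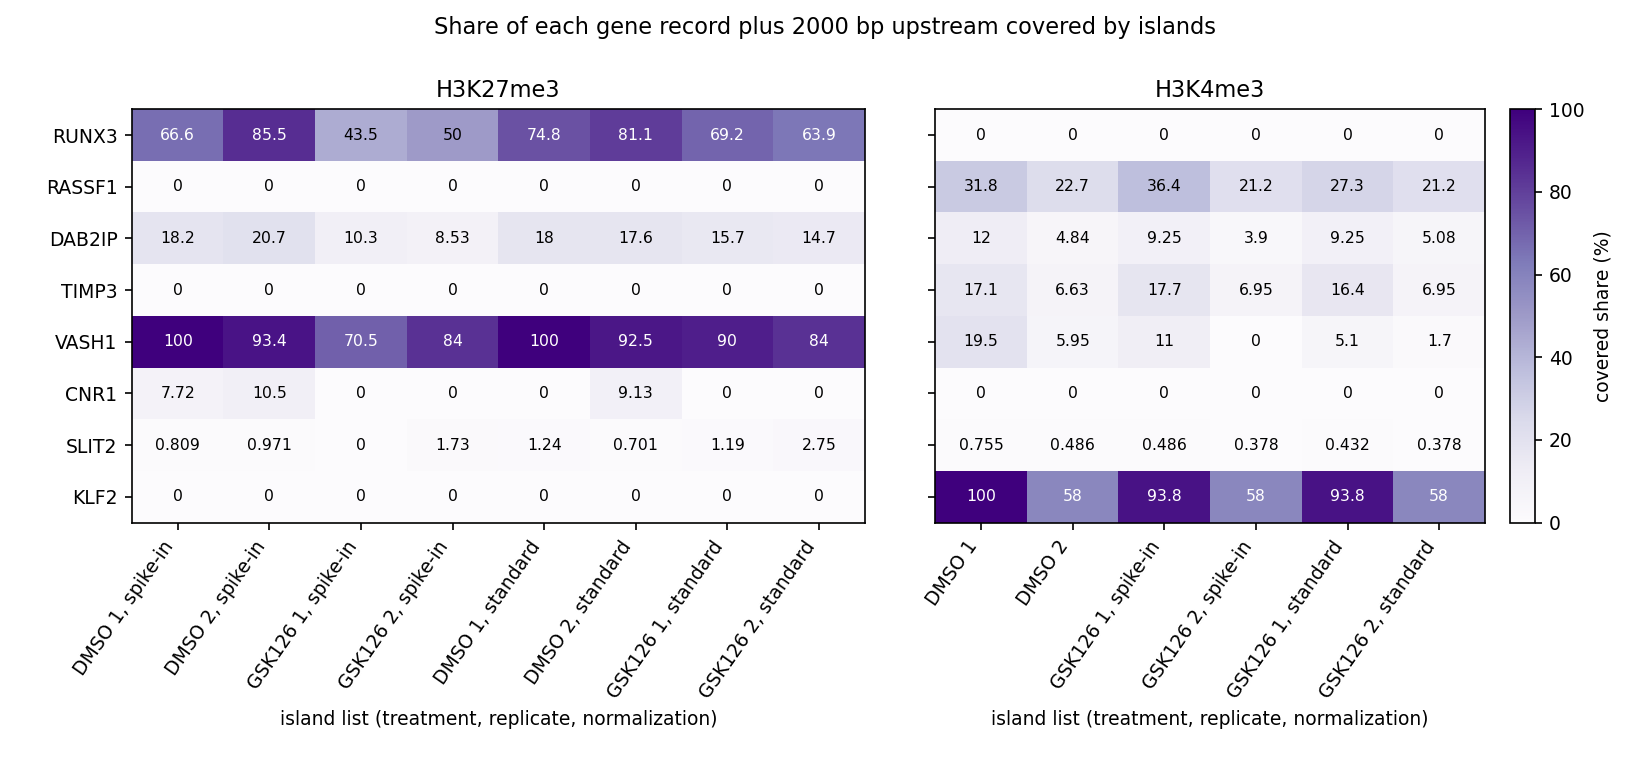
Share (%) of each gene record plus 2000 bp upstream covered by islands, for the 8 genes (rows) and the 14 island lists (columns, labelled by treatment, replicate and normalization), with darker cells for higher shares. VASH1 and RUNX3 were covered by H3K27me3 over most of their length with DMSO, RASSF1, TIMP3 and KLF2 were at 0 in all 8 H3K27me3 lists, and RUNX3 and CNR1 were at 0 in all 6 H3K4me3 lists.

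RUNX3 (ENSG00000020633, chr1:25226002-25291612, minus strand) encodes a Runt domain transcription factor that acts downstream of TGF-β and BMP signals. It was the second most covered of the 8 genes, with H3K27me3 and no H3K4me3. Islands of H3K27me3 covered 45.0 and 57.8 kb of its 67.6 kb with DMSO in the spike-in lists of replicates 1 and 2, and 29.4 and 33.8 kb with GSK126. Both GSK126 values lay below both DMSO values. The covered share changed by -23.1 and -35.5 percentage points, on average -29.3 ± 8.79 (SD, n = 2). At equal tag numbers, in the standard lists, islands covered 50.6 and 54.8 kb with DMSO but 46.8 and 43.2 kb with GSK126, a change of -11.4 ± 8.16 points (SD, n = 2). With DMSO its covered share was higher than that of 91.0% and 93.6% of all genes.

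The H3K27me3 over RUNX3 was not one domain but a row of 6 to 8 islands with DMSO and of 5 to 6 with GSK126. The highest-scoring island of the gene in each of the 8 lists lay at its 3′ end, between 55.2 and 69.2 kb downstream of the gene start, and was still called in all 4 lists with GSK126. Most of the covered length was intronic, with 7.95% and 8.52% of it in exons in the DMSO spike-in lists. RUNX3 has a distal and an internal start. The distal start, 0.111 kb into the record, lay in an H3K27me3 island in 3 of 4 DMSO lists and 2 of 4 GSK126 lists. The internal start, that of the canonical transcript, lies 34.8 kb downstream, next to the CG-rich window printed above. It was in an island in 1 of 4 DMSO lists and in 0 of 4 GSK126 lists. In the other lists the islands ended on either side of it. Part of the long row, between 14.4 and 18.6 kb from the start, was covered in 3 of the 4 DMSO lists and in none of the 4 GSK126 lists. These islands scored low. In the spike-in list of DMSO replicate 1 the score was 41.5, close to the lowest of the list, 41.3. In DMSO replicate 2 the scores were above 28.3% (spike-in) and 22.4% (standard) of the islands of the list.

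VASH1 (ENSG00000071246, chr14:77227811-77249358, plus strand) encodes vasohibin, an enzyme that removes the terminal tyrosine of α-tubulin and restrains the growth of blood vessels. It was the gene with the strongest H3K27me3 of the list. A single island of 32.4 kb in replicate 1 and 29.2 kb in replicate 2 ran from 9.21 kb upstream of the start past or nearly to the end of the gene, with a score above that of 98.9% and 98.8% of the islands of its list. It covered 100% and 93.4% of the measured region with DMSO and 70.5% and 84.0% with GSK126 in the spike-in lists, a change of -29.5 and -9.34 points. The mean, -19.4 ± 14.3 points (SD, n = 2), was little larger than the spread between the replicates. The standard lists gave 100% and 92.5% with DMSO and 90% and 84.0% with GSK126, a change of -9.25 ± 1.08 points (SD, n = 2).

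What VASH1 lost was at its 3′ side. With GSK126 the main island of the spike-in lists still began 9.21 and 9.61 kb upstream and ended 11.8 and 12.0 kb downstream of the start, and a second, lower-scoring island followed at 13.0 to 15.8 kb and 12.8 to 18.6 kb. The first start was under H3K27me3 in all 8 lists. H3K4me3 at VASH1 was a small island at the start, of 2.2 and 1.4 kb with DMSO, with scores above 34.9% and 33.2% of the islands of the lists, and in replicate 1 an island of 2.4 kb further downstream. All of the H3K4me3 of VASH1 lay under H3K27me3 with DMSO. With GSK126 the H3K4me3 covered length was 2.6 and 0 kb in the spike-in lists and 1.2 and 0.4 kb in the standard lists, against 4.6 and 1.4 kb with DMSO in all. The total was lower with GSK126 in each replicate under each normalization. In replicate 1 of the spike-in lists, however, the island at the start was longer with GSK126 (2.6 kb), and the difference came from the downstream island, whose score of 34.3 lay close to the lowest of its list, 31.1. The common direction in the spike-in lists was lost with only islands of at least 2 times the lowest score (-2.12 ± 5.41 points) and within 2000 bp of the start (-12.5 ± 31.8 points; SD, n = 2). VASH1 shares its start region with the divergent transcript VASH1-DT, and the mark cannot be assigned to one or the other.

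**Figure D2:**
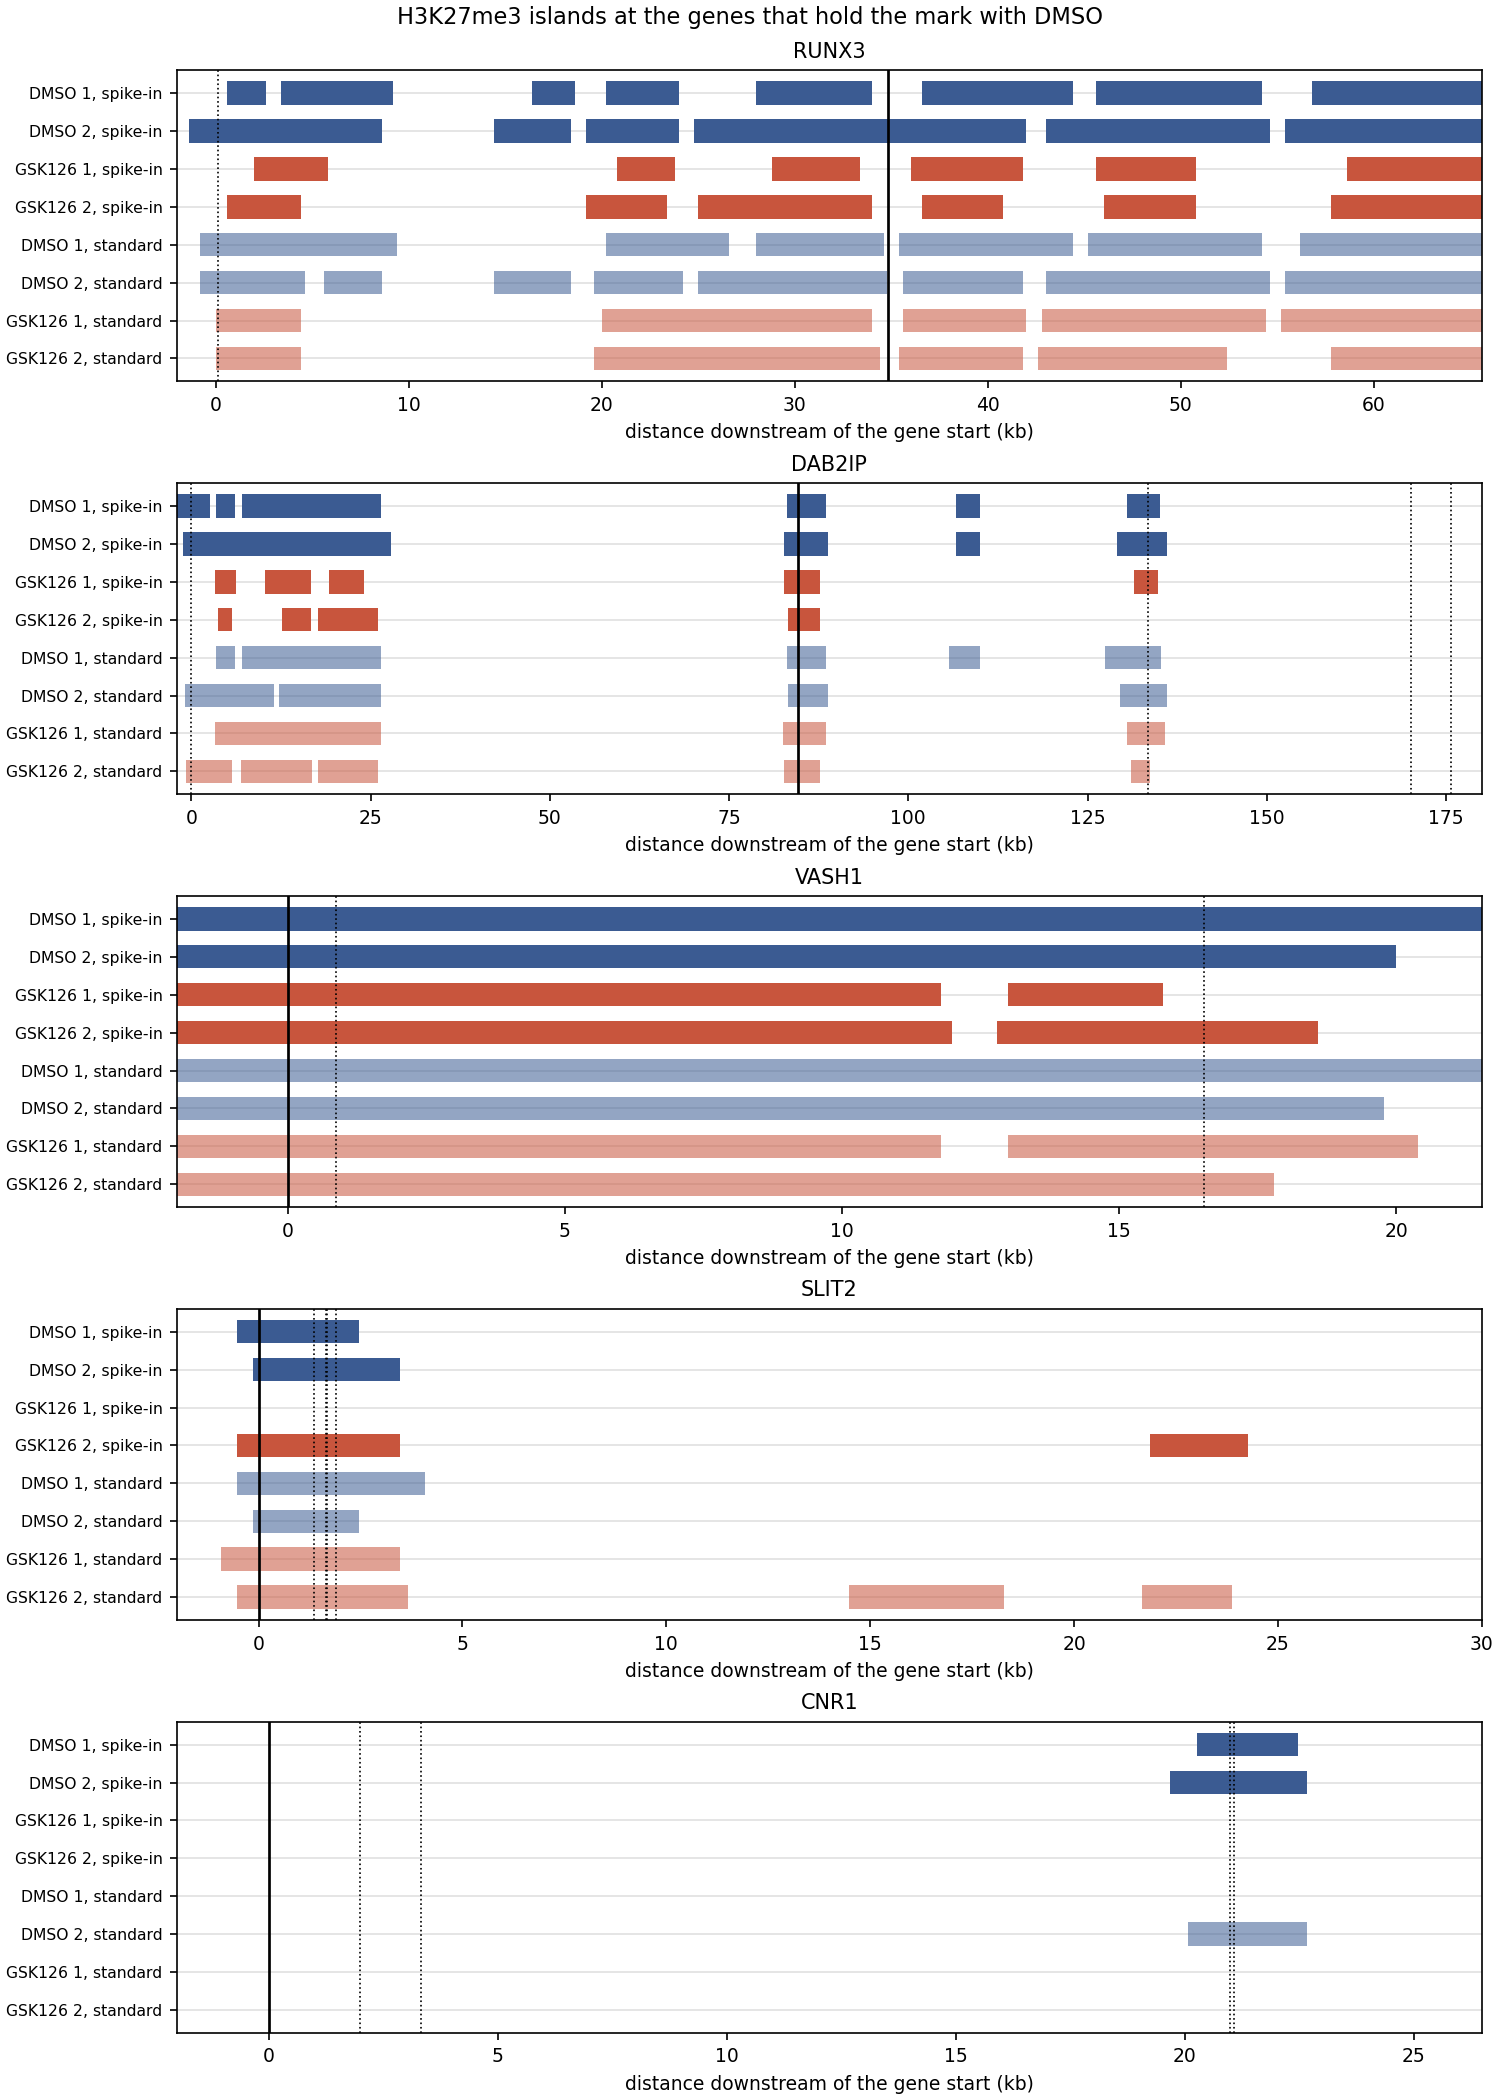
H3K27me3 islands along RUNX3, VASH1 and CNR1 and the 5′ parts of DAB2IP and SLIT2, with distance downstream of the gene start (kb) on the x axis and one row per list. Blue bars are islands with DMSO and red bars with GSK126, paler in the standard lists, vertical lines are transcript starts (solid for the canonical transcript), and the domain of VASH1 shortens at its right end while its start stays covered in all 8 lists.

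DAB2IP (ENSG00000136848, chr9:124329336-124547809, plus strand) encodes a GTPase-activating protein for RAS that is also a scaffold in TNF and PI3K signalling. Both marks were present at several places along its 220 kb, and with DMSO they overlapped in part. H3K27me3 covered 40.1 and 45.6 kb with DMSO in the spike-in lists and 22.6 and 18.8 kb with GSK126. Its change of -10.0 ± 2.99 points (SD, n = 2) corresponded to a log2 ratio of -1.05 ± 0.320. With equal tag numbers it covered 39.6 and 38.8 kb with DMSO and 34.6 and 32.4 kb with GSK126, a log2 ratio of -0.23 ± 0.0462 (SD, n = 2). As at RUNX3, the values with GSK126 lay below those with DMSO in each replicate and under each normalization.

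The H3K27me3 of DAB2IP lay mainly in 3 places. The largest was the first 26.5 to 27.9 kb of the gene, where the highest-scoring island of the DMSO spike-in lists, 19.4 and 29.0 kb long, broke up into shorter islands of at most 8.4 kb in the GSK126 spike-in lists. In the standard lists the same stretch held 2 islands in each DMSO replicate, and with GSK126 a single island of 23.2 kb in replicate 1 and 3 islands of 6.4, 10.0 and 8.4 kb in replicate 2. The first start, at the edge of this domain, was covered in 3 of 4 DMSO lists and in 1 of 4 GSK126 lists. The second place was the canonical start, 84.6 kb downstream, whose CG-rich window is printed above. It lay in an H3K27me3 island in all 8 lists, of 4.4 to 6.2 kb, and in an H3K4me3 island in 1 of 2 DMSO lists and 3 of 4 GSK126 lists. The third was a start 134 kb downstream, under H3K27me3 in 4 of 4 DMSO and 3 of 4 GSK126 lists and under H3K4me3 in all 6 lists of that mark. A smaller H3K27me3 island that ended 110 kb downstream was called in 3 of 4 DMSO lists and in 0 of 4 GSK126 lists.

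A pair of further starts of DAB2IP, 170 and 176 kb downstream, had no H3K27me3 in any list. The first of them carried H3K4me3 in all 6 lists and the second in 3. Together the H3K4me3 islands of the gene covered 26.5 and 10.7 kb with DMSO and 20.4 and 8.6 kb with GSK126 in the spike-in lists, and 20.4 and 11.2 kb in the standard lists. H3K4me3 was therefore lower with GSK126 in both replicates in the spike-in lists, but higher in replicate 2 of the standard lists. The highest-scoring H3K4me3 island, 30.1 to 35.3 kb downstream of the start, lay beyond the first H3K27me3 domain and at no annotated start of the transcripts used here. The share of DAB2IP's H3K4me3 that lay under H3K27me3 was 26.7% and 28.1% with DMSO and 27.5% and 0% with GSK126 in the spike-in lists.

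SLIT2 (ENSG00000145147, chr4:20253528-20622184, plus strand) encodes a secreted ligand of ROBO receptors that steers axons and migrating cells. Both marks sat together over its start, and its covered share was small because the record is 369 kb long. H3K27me3 covered 3.0 and 3.6 kb with DMSO in the spike-in lists and 0 and 6.4 kb with GSK126. The replicates thus went in opposite directions. With the standard normalization H3K27me3 covered 4.6 and 2.6 kb with DMSO against 4.4 and 10.2 kb with GSK126. The excess in replicate 2 came from islands further downstream, 21.9 to 24.3 kb from the start in the spike-in list and 14.5 to 18.3 kb and 21.7 to 23.9 kb in the standard list, which no list of another library held. The island at the start itself was called in 4 of 4 DMSO lists and in 3 of 4 GSK126 lists.

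H3K4me3 at SLIT2 was a single island over the start, of 2.8 and 1.8 kb with DMSO. With GSK126 it was 1.8 and 1.4 kb in the spike-in lists and 1.6 and 1.4 kb in the standard lists. In both lists of GSK126 replicate 2 it began 0.073 kb downstream of the first start, which it no longer covered. The log2 ratio was -0.50 ± 0.194 in the spike-in lists and -0.58 ± 0.315 in the standard lists (SD, n = 2), lower in each replicate. With DMSO, 92.9% and 88.9% of this H3K4me3 lay under H3K27me3.

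CNR1 (ENSG00000118432, chr6:88849583-88876066, minus strand) encodes a G protein-coupled receptor for cannabinoids. It had no H3K4me3 in any list. One island of 2.2 and 3.0 kb was present with DMSO in the spike-in lists, and no island was present with GSK126. CNR1 was the 1 gene of the 8 that held H3K27me3 with DMSO and none with GSK126 in both replicates of the spike-in lists, beside 8.87% of all genes. The island lay 19.7 to 22.7 kb downstream of the first start, over an internal pair of starts, and 67.5% and 56.1% of it was exonic. Its scores were above those of 4.53% and 37.3% of the islands of the list. In replicate 1 the score, 43.97, was near the lowest of the list, 41.3, whereas in replicate 2 it was 87.2 against a lowest score of 42.7. Of the standard lists, that of DMSO replicate 2 alone held it (2.6 kb), so that replicate 1 was at 0 with both treatments, and a loss with GSK126 was not detectable in that replicate. The first start of CNR1, whose window is printed above, carried no island of either mark in any of the 14 lists.

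**Figure D3:**
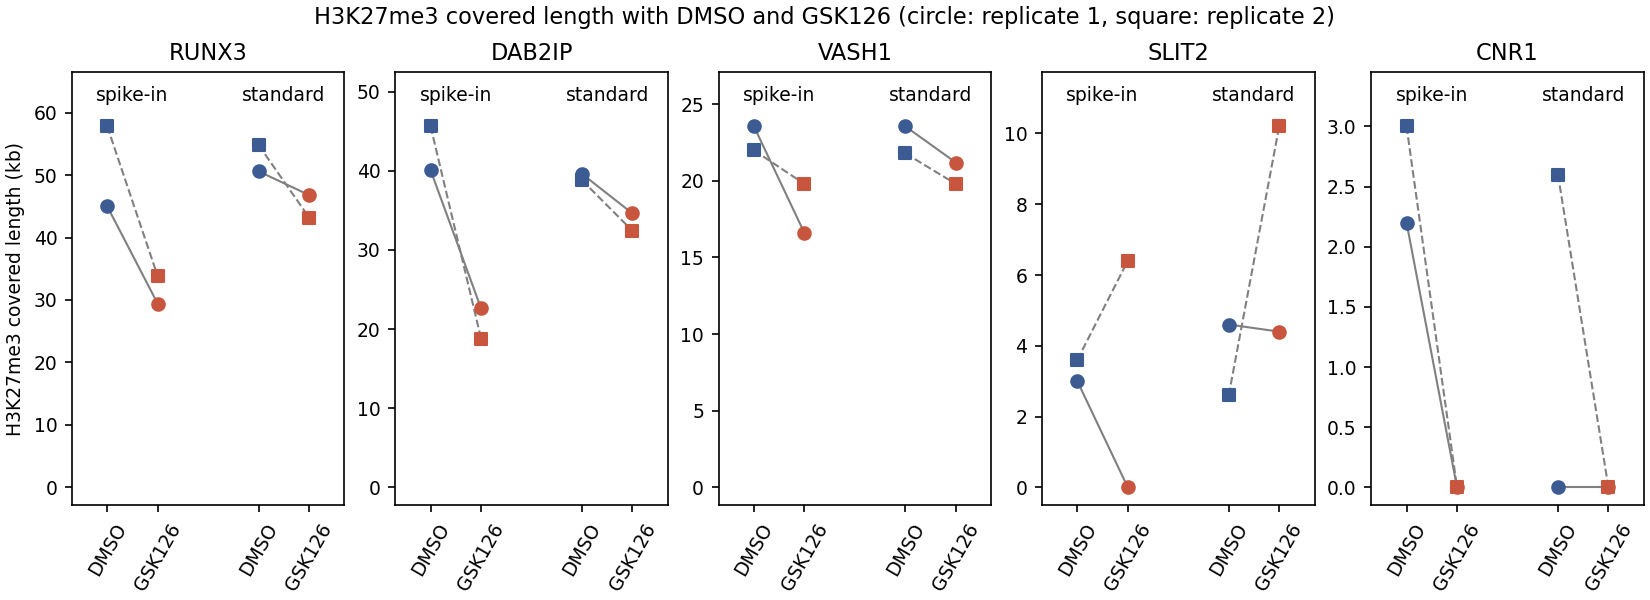
H3K27me3 covered length (kb, a separate axis for each gene) with DMSO (blue) and GSK126 (red) at the 5 genes that held the mark, in the spike-in lists (left pair of positions) and the standard lists (right pair), with lines joining the libraries of a replicate (circle and solid line for 1, square and dashed line for 2). RUNX3, DAB2IP and VASH1 were lower with GSK126 in all 4 pairs, whereas the replicates of SLIT2 diverged.

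Across the list, 4 of the 8 genes had a shorter H3K27me3 covered length with GSK126 in both replicates of the spike-in lists. They were RUNX3, DAB2IP, VASH1 and CNR1, and the share over all genes was 24.9%. The length was shorter in both standard pairs at 3 (RUNX3, DAB2IP and VASH1), beside 14.3% of all genes. Of all genes, 67.0% had no H3K27me3 island in any list and could not be counted here, as was the case for 3 of the 8. Summed over the 8 genes, H3K27me3 islands covered 114 and 132 kb with DMSO and 68.6 and 78.8 kb with GSK126 in the spike-in lists, a log2 ratio of -0.74 ± 0.00972 (SD, n = 2). The same sum over all genes gave -1.06 ± 0.0209. With the standard normalization the log2 ratio was -0.17 ± 0.0326 for the 8 genes and -0.31 ± 0.140 for all genes. RUNX3, DAB2IP and VASH1 supplied most of the summed length, so the sum describes mainly these 3. An exact test that flips the signs of 2 pairs reaches no p smaller than 0.5, so no test is given.

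The genes with broad H3K27me3 kept more of it than a typical marked gene in the spike-in lists. Among the 5573 genes with an island in both DMSO lists, the median share of covered length kept with GSK126 was 30.2% and 27.9%, whereas RUNX3 kept 65.3% and 58.5%, VASH1 70.5% and 90%, and DAB2IP 56.4% and 41.2%. CNR1 kept 0% in both, and SLIT2 0% and 178%. Against 2339 genes covered over at least 50% of their region in both DMSO lists, a group that was set after these values were seen, the medians were 60.4% and 63.3%. There RUNX3 was above the median in replicate 1 and below it in replicate 2, and VASH1 was above it in both. Over the marked genes of the standard lists the medians were 91.2% and 75.0%. RUNX3, with 92.5% and 78.8%, was above them in both replicates, and VASH1, with 90% and 90.8%, and DAB2IP, with 87.4% and 83.5%, were below in replicate 1 and above in replicate 2. Against the 2202 genes covered over at least 50% in both DMSO standard lists, with medians of 97.7% and 90.9%, RUNX3 and VASH1 were below the median in both replicates.

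The scores of the standard lists, which rest on equal tag densities within a replicate, behaved differently from the lengths. SICER scores an island by adding up, window by window, how improbable its tags are under a Poisson background (as a negative natural log), and here each score was shared out evenly along its island. This comparison was chosen after the lengths were seen. Over RUNX3 the summed H3K27me3 score was 1387 and 1684 with DMSO and 1848 and 2492 with GSK126, 1.33 and 1.48 times as high. VASH1 had 2771 and 3270 with DMSO, and 3224 and 4537 with GSK126, 1.16 and 1.39 times as high. At DAB2IP the ratio was 1.1 in replicate 1 and 0.891 in replicate 2, so no common direction was seen. SLIT2 gave 1.09 and 5.44, on far lower scores of 100.2 and 57.8 with DMSO and 109 and 314 with GSK126. The score was higher with GSK126 in both replicates at 3 of the 8 genes (RUNX3, VASH1 and SLIT2), beside 8.72% of all genes. RUNX3 and VASH1 combined a higher score with a shorter covered length in both replicates, as did 2.64% of all genes. Both shares are over all genes, of which 67.0% had no H3K27me3 island in any list and could not be counted. At RUNX3 and VASH1 fewer bases were covered, and the score per covered base was higher. This was not particular to them. DAB2IP kept 87.4% and 83.5% of its covered length against score ratios of 1.1 and 0.891. SLIT2 had 95.7% and 392% of its length against score ratios of 1.09 and 5.44. The score per covered base was thus higher with GSK126 in both replicates at these genes as well.

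**Figure D4:**
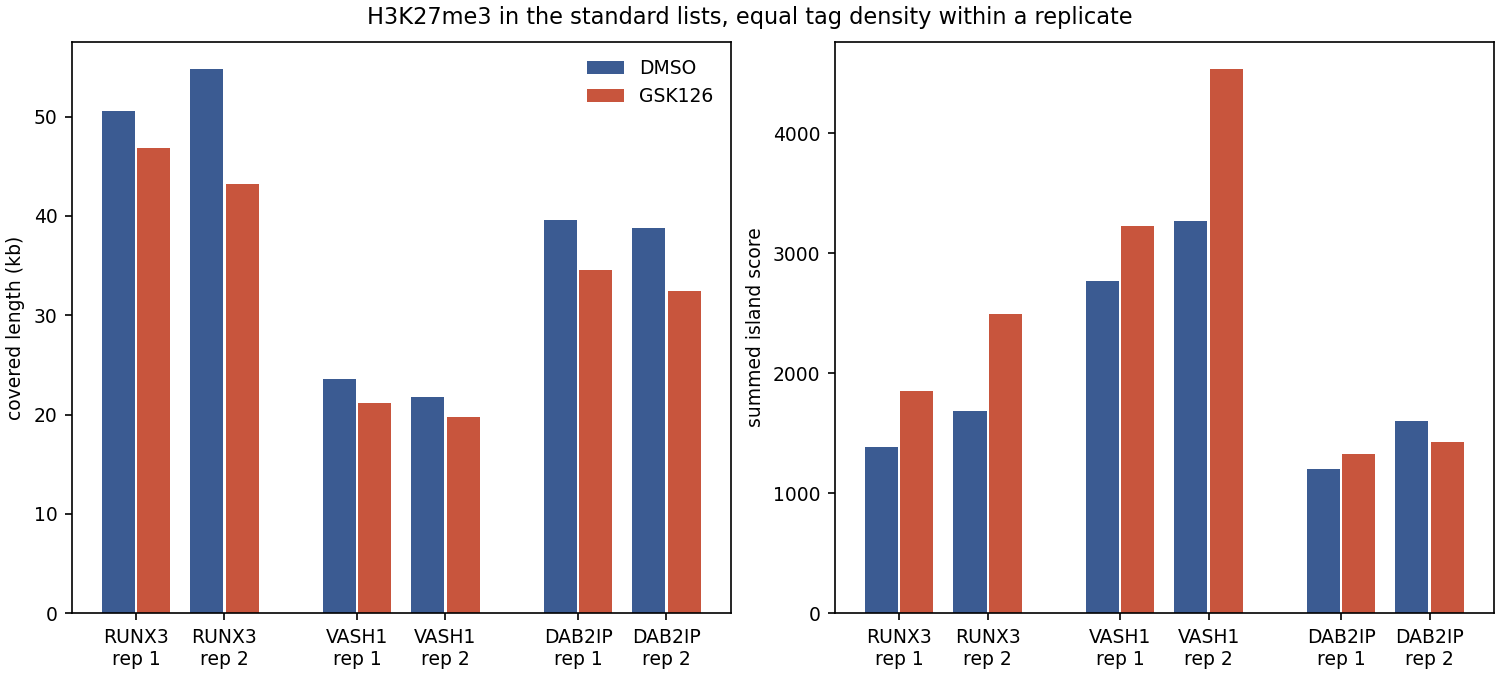
H3K27me3 covered length (kb, left) and summed island score (right) of RUNX3, VASH1 and DAB2IP in the standard lists, for DMSO (blue) and GSK126 (red) in each replicate (rep), 1 bar per library. Every GSK126 bar is shorter than its DMSO partner on the left, while on the right it is taller in both replicates of RUNX3 and VASH1 and in replicate 1 of DAB2IP.

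The remaining 3 genes carried H3K4me3 alone. RASSF1 (ENSG00000068028, chr3:50367213-50378411, minus strand) encodes a scaffold protein of the Hippo pathway with a RAS association domain. Its H3K4me3 did not lie over the first starts. The island, between 1.61 and 6.81 kb downstream of the gene start, covered the internal starts 2.75 and 3.52 kb downstream in all 6 lists and the starts within the first 0.144 kb, the canonical one included, in none. It measured 4.2 and 3.0 kb with DMSO, 4.8 and 2.8 kb with GSK126 in the spike-in lists and 3.6 and 2.8 kb in the standard lists. The spike-in replicates differed in sign, with a mean change of 1.52 ± 4.29 points, whereas both standard replicates were lower, by a change of -3.03 ± 2.14 points (SD, n = 2). The measured region overlaps ZMYND10, and no H3K27me3 island lay over the shared stretch.

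TIMP3 (ENSG00000100234, chr22:33197691-33259028, plus strand) encodes a matrix-bound inhibitor of metalloproteinases and lies inside SYN3, which is transcribed from the other strand. Its start carried one of the highest-scoring H3K4me3 islands of these genes, above 96.5% and 95.5% of the islands of the DMSO lists. H3K4me3 covered 10.8 and 4.2 kb with DMSO, 11.2 and 4.4 kb with GSK126 in the spike-in lists and 10.4 and 4.4 kb in the standard lists. It was the 1 gene of the 8 with a longer H3K4me3 covered length in both replicates of the spike-in lists, beside 5.73% of all genes, and the difference of 0.474 ± 0.223 points (SD, n = 2) amounted to 0.4 and 0.2 kb.

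KLF2 (ENSG00000127528, chr19:16435637-16439496, plus strand) encodes a zinc finger transcription factor of endothelial cells and quiescent T cells. H3K4me3 covered 5.86 of its 5.86 kb in replicate 1 and 3.4 kb in replicate 2 with DMSO. With GSK126 it covered 5.50 and 3.4 kb under each normalization. The whole gene was thus under H3K4me3 in the deeper replicate with DMSO, and within the measured region no change beyond 0.364 kb was seen. The island of that replicate reached beyond the region. It was 6.8 kb long with DMSO, and with GSK126 6.8 kb in the spike-in list and 5.6 kb in the standard list.

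**Figure D5:**
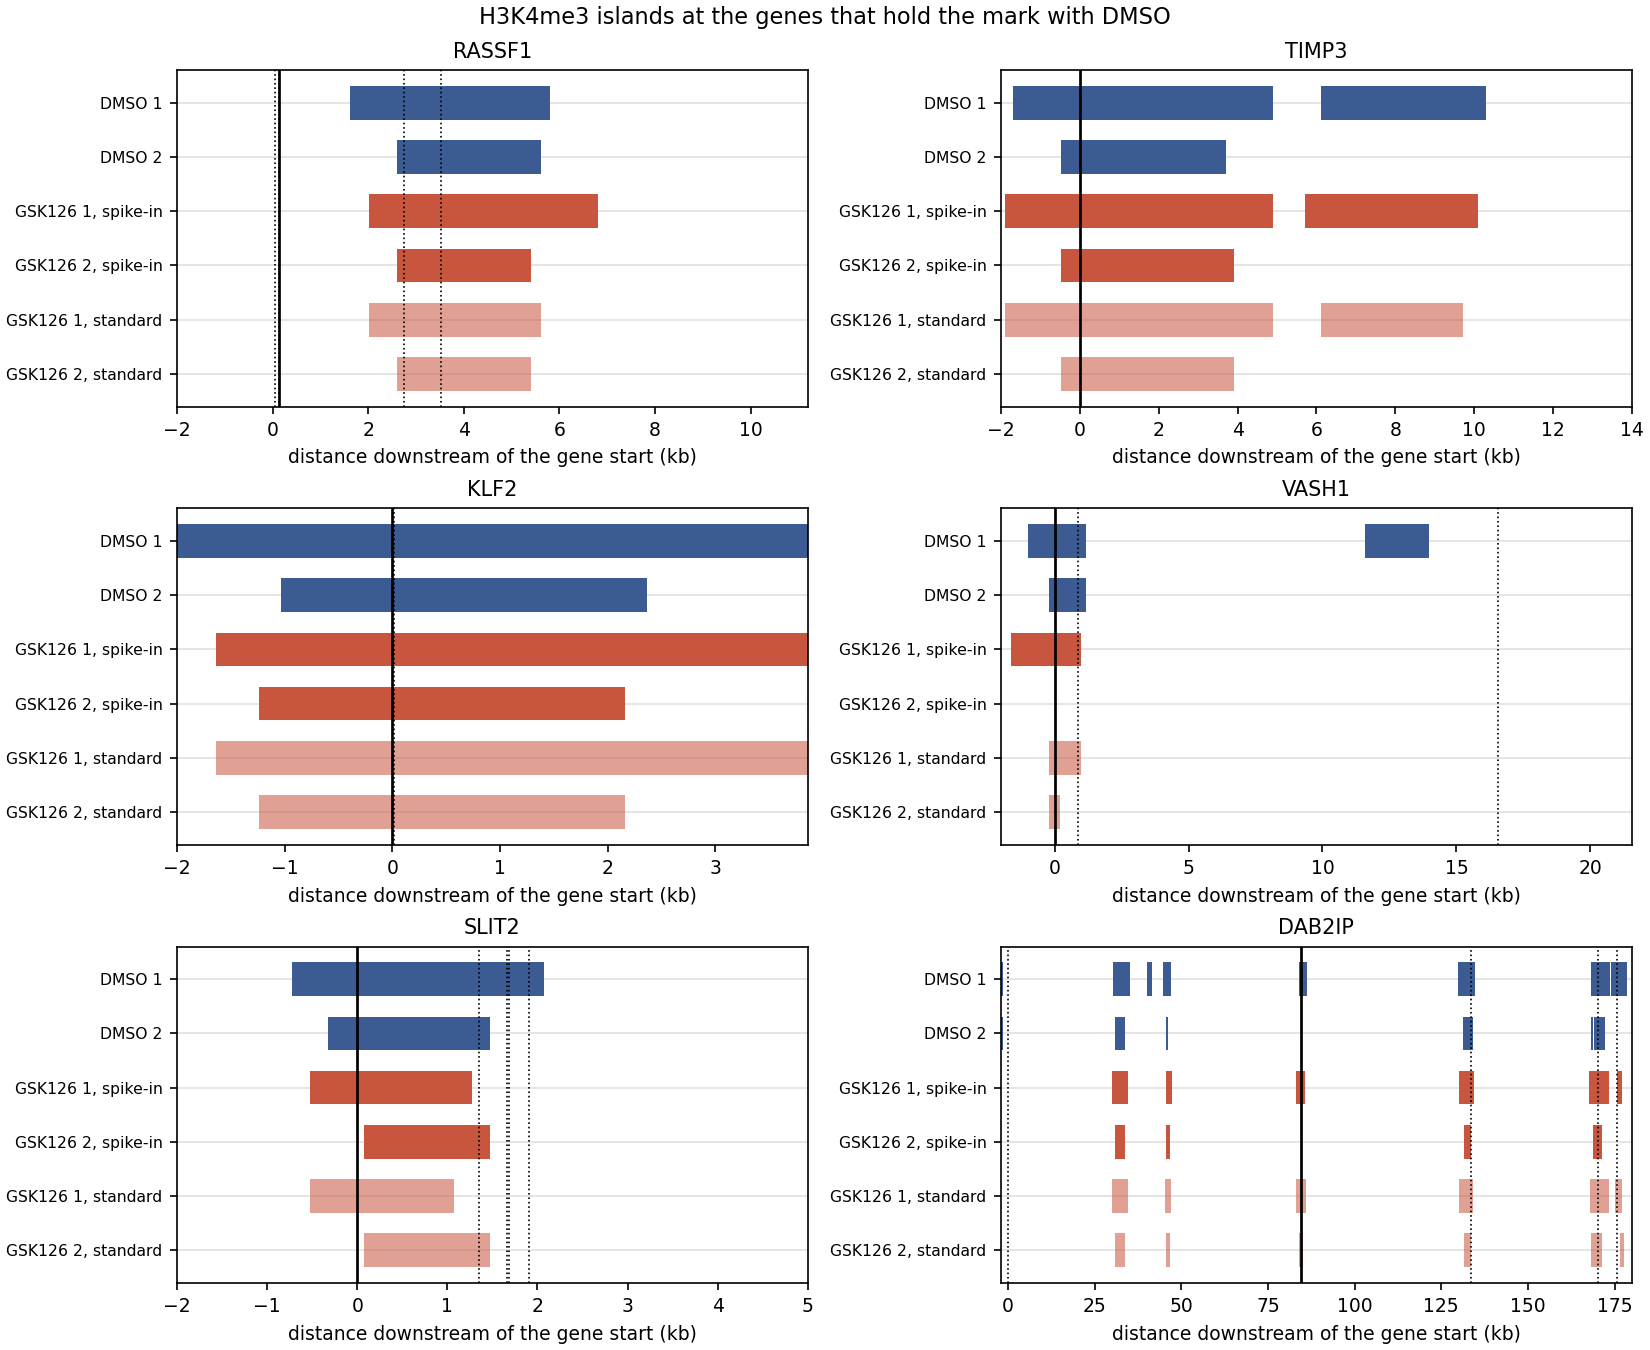
H3K4me3 islands at the 6 genes that held the mark, with distance downstream of the gene start (kb) on the x axis and one row per list (blue for DMSO, red for GSK126, paler in the standard lists; vertical lines are transcript starts, solid for the canonical transcript). The island of RASSF1 lies over internal starts in all 6 lists, and that of VASH1 is absent from 1 list with GSK126.

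Summed over the 8 genes, H3K4me3 covered 54.7 and 24.5 kb with DMSO and 46.3 and 20.6 kb with GSK126 in the spike-in lists, a log2 ratio of -0.24 ± 0.00478 (SD, n = 2), against -0.17 ± 0.0120 over all genes. The standard lists gave -0.21 ± 0.216 for the 8 genes and -0.16 ± 0.0816 for all genes. H3K4me3 was lower in both replicates at 3 of the 8 in the spike-in lists (DAB2IP, VASH1 and SLIT2; 25.3% of all genes) and at 3 in the standard lists (RASSF1, VASH1 and SLIT2; 25.7% of all genes). VASH1 and SLIT2, the genes with both marks at the first start, were in each of these groups, but in the spike-in lists the count was 2, without VASH1, with the higher score threshold and within 2000 bp of the starts. No gene that lacked H3K4me3 with DMSO gained an island of it with GSK126, as RUNX3 and CNR1 were at 0 in all 4 lists.

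The share of covered bases common to both replicates was larger for H3K27me3 than for H3K4me3, whose replicates differed more in covered length. Of the bases of the 8 regions covered in either DMSO library, 79.9% were covered in both for H3K27me3 (spike-in lists) and 44.7% for H3K4me3. With GSK126 the shares were 63.8% and 43.9% in the spike-in lists. Islands report where a mark passed the calling threshold in the population of cells, and fewer cells with the mark cannot be told apart from less of the mark in each cell.

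The pattern of each gene over the 14 lists was set beside that of all other genes by Euclidean distance of the covered shares, for the 4 genes with H3K27me3 in every DMSO list. TNNI1, which encodes slow skeletal troponin I, was nearest to RUNX3, at 9.96 percentage points, and was covered by H3K27me3 over 76.4% with DMSO and 58.6% with GSK126 on average. LRRFIP1 was nearest to DAB2IP, at 6.07 points, and NELL2, which encodes a secreted neural protein, was nearest to SLIT2, at 1.92 points. VASH1 had no close match. Its nearest gene, ASTL, which encodes the oocyte protease ovastacin, lay 17.9 points away.

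Families of the 8 genes were examined through 57 relatives, of which 15 had H3K27me3 within 2000 bp of the start in both DMSO spike-in lists and 8 had it in both with GSK126. Over all protein-coding genes the shares were 19.5% with DMSO and 9.92% with GSK126. The RUNX3 paralogue RUNX1 and the VASH1 paralogue VASH2 were among the 15. Of the SLIT and ROBO family, SLIT1, SLIT3 and ROBO3 were marked, 3 of 6, and SLIT3 was covered over 80.0% and 86.1% with DMSO and 37.4% and 48.3% with GSK126. FAAH and DAGLA were marked among 6 endocannabinoid genes, and RASSF2 and RASSF5 among 12 RASSF and Hippo genes. The KLF family held 4 of 16, namely KLF1, KLF13, KLF14 and KLF15. None of the 3 other TIMP genes was marked, and all 3 carried H3K4me3 at the start, as did TIMP3 and 60.6% of all genes.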

How the data were processed

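H3K27me3 and H3K4me3 ChIP-seq of PC9 cells was analysed from 14 island lists of 8 libraries. Single-end 50-nt tags had been aligned by the authors to hg19 (GRCh37) with BWA, duplicates and tags that were not uniquely mapped had been removed, and islands had been called per library with SICER (200-bp windows, an allowed gap of 600 bp (H3K27me3) or 200 bp (H3K4me3), E-value of 1, random background). SAMtools 0.1.18 is named in the submitters' processing notes. The score deposited by the authors for each island depends on the tag number of its list, so scores were compared only between standard lists of a replicate. H3K4me3 libraries with DMSO had 1 list, which was used for both normalizations.

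Libraries were grouped by the labels' antibody and treatment. Replicate 1 and replicate 2 are the earlier and later deposited libraries, and the DMSO and GSK126 standard lists of a replicate had equal tag density. Covered length was the number of bases of the gene record (GENCODE 44, mapped to GRCh37) plus 2000 bp upstream that lay in islands. GSK126 was compared with DMSO inside each replicate, and differences and log2 ratios are mean ± SD over 2 replicates. In sums over all genes, bases shared by overlapping genes count once for each gene. Python 3.11.15, NumPy 2.4.6, SciPy 1.17.1 and Matplotlib 3.10.9 were used. Covered length, summed score and tag density were tested on simulated data.

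The 8 genes, their relatives and the marker lists were chosen with earlier results of these data known. All 8 are named with their values, relatives are named where H3K27me3 lay at the start in both DMSO lists (those of DAB2IP are counted in the total and not reported here by name), and the nearest gene is given for each of the 4 genes with H3K27me3 in all DMSO lists. Alternatives were a score of at least 2 times the lowest of the list, islands of at least 2000 bp (H3K27me3) or 600 bp (H3K4me3), the gene body alone or with 5000 bp upstream, 2000 bp on either side of the start, leaving out each replicate, no pairing of replicates, the standard DMSO list for H3K27me3, and, chosen after seeing the data, summed scores. Tag counts per window were not used here, so no counting interval is given, and depth is shown by the tag density. The other cell line of the study was not analysed here.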

Additional observations from a re-analysis of the deposited data

How the results depend on the processing

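The summed covered length of the 8 genes with GSK126 stayed below that with DMSO in all 33 recalculations under the other settings that kept covered length as the measure. In none of the 181 recalculated differences of single genes was a direction shared by both replicates turned. Part of these outcomes was fixed in advance. Leaving out a replicate or the pairing cannot turn a direction that both replicates share. Single genes without a shared direction could not be counted as turned. For H3K27me3 in the spike-in lists, the log2 ratio was -0.74 ± 0.00972 (SD, n = 2) in the main setting. It was -0.91 with only islands of at least 2 times the lowest score and -0.73 over the gene body alone. With the standard DMSO list it was -0.70. Within 2000 bp of the starts it was -1.13 ± 0.635 (SD, n = 2), so the replicates differed widely. In that window, 2 genes instead of 4 were lower in both replicates. In the standard lists that window gave a log2 ratio of -0.069 in place of -0.17, and 1 gene instead of 3. For H3K4me3 in the spike-in lists (-0.24), the log2 ratio was -0.17 with the higher score threshold, -0.23 with islands of at least 600 bp, -0.28 with 5000 bp upstream and -0.27 within 2000 bp of the starts. There VASH1 lost its common direction with the higher score threshold and within 2000 bp of the starts, which left 2 genes of 3.

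The number of genes with less H3K4me3 in the standard lists was 3 with both replicates required, 6 without pairing of the replicates (no replicate block), and between 3 and 6 when 1 replicate was left out, the 6 without replicate 2. With summed scores in place of covered length, an alternative chosen after seeing the data, the H3K27me3 log2 ratio in the standard lists was 0.32, opposite in sign to that of the lengths, and 0 genes had a lower score in both replicates. The causes were not tested. With 2 replicates, the shallow second H3K4me3 replicate limits what can be said of small islands such as those of VASH1 and SLIT2.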
